A study of Rattus norvegicus with 20 samples.

Results

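The genes described here encode the heterotrimeric G proteins and the membrane adenylyl cyclases of the rat: the alpha, beta and gamma subunits that carry signals from receptors, and the enzymes that make cyclic AMP. The members were the probes, other than control spots, whose gene name was 1 of 36 symbols of this family. Of the 36 genes, 35 had at least 1 probe, and 30 were among the 17086 genes tested in the whole series. No probe was matched to Gng2.

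A G protein coupled receptor activates its G protein by exchanging GDP for GTP on the alpha subunit, which then separates from the beta-gamma pair. Gs and Golf alpha subunits stimulate adenylyl cyclase, Gi and Go alpha subunits restrain it or act on ion channels, and Gq and G11 act through phospholipase C. Free beta-gamma pairs open inwardly rectifying potassium channels, close presynaptic calcium channels and act on some cyclases, so that in hypothalamic neurons GABA-B, opioid, dopamine and peptide receptors all work through these genes.

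Expression was measured in the hypothalamic arcuate nucleus of 20 female Sprague-Dawley rats aged 15 postnatal days, 4 in each of 5 conditions, on 2-colour oligonucleotide arrays. SNS rats were exposed to saline before birth, had no spasms and were given saline. BNS rats were exposed before birth to betamethasone, a synthetic glucocorticoid, at 0.4 mg/kg per injection on gestational day 15, and had neither spasms nor treatment other than saline. BYS rats had the same prenatal betamethasone, had spasms triggered by N-methyl-D-aspartate (NMDA) on postnatal days 12, 13 and 15, and were given saline. BYA and BYP rats differed from BYS in being treated with the hormone ACTH or with PMX53, an antagonist of the complement receptor C5ar1, per the labels on postnatal days 13, 14 and 15. All 4 conditions other than SNS therefore share prenatal betamethasone, and no group had spasms without it. The labels call the rats of a condition separate animals but do not tie them to litters, so that p-values measure the spread between these samples.

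Each array carried a pair of rats of the same condition, 1 in each dye, except that BYA replicates 3 and 4 lay on arrays whose other channel was not analysed here. The dye of BYA replicate 3 is uncertain, because its label and the name of its raw data differ in order. Arrays of a condition shared a slide, apart from that of BYA replicate 3, so slide and condition cannot be told apart in any comparison below. Spots were brighter in BNS and BYS, where signal was 15.9 times the local background in the median sample of both, than in SNS (6.89), BYA (7.48) or BYP (9.12), and the SNS samples spanned 5.66 to 11.3. The part of this brightness difference in the results was not tested. Of the 12 markers of arcuate neurons that were looked for (among them Pomc, Agrp, Npy and Kiss1), all 12 were tested and none was called in any comparison with SNS. Over 13 lists of cell type and neighbouring tissue markers, 83 of 102 genes were tested. Against SNS 1 or 2 of these were higher and 2 or 3 lower, beside 15.7% to 21.8% of all genes called. Of 6 choroid plexus markers 2 were tested and neither was called. Their median log2 fold change, the lowest of the lists, was -0.85 in BNS, -0.87 in BYS, -0.65 in BYA and -0.96 in BYP. Their summed intensity was 3350 to 7260 in SNS and 1690 to 3430 in the other conditions. That of oligodendrocyte markers was 5480 to 22900 in SNS and 6380 to 16100 in the others. Whether such tissue differences bear on the members was not tested. The neuronal marker Syt1 was higher than in SNS in all 4 (log2 fold change 0.48 in BNS to 0.92 in BYA). It was the only 1 of 7 tested neuronal markers called, and their median was 0.04 (BNS), 0.18 (BYS), 0.28 (BYA) and 0.06 (BYP). Also higher than in SNS were 1 astrocyte marker in BNS and 1 red blood cell marker in BYA. Lower were 2 endothelial or pericyte markers in BYA, and 1 ependymal or tanycyte marker each in BNS, BYA and BYP. The microglial marker Cx3cr1 was lower in BNS, BYS and BYP (-0.78, -1.27 and -0.66). Of the other 7 microglial markers, C1qa was higher in BYS (0.44) and P2ry12 lower in BYP (-1.03).

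Of the 35 genes with a probe, 30 passed the filter on low values, which kept a probe only where some condition had it well above background in each of its 4 rats. Gna13 and Adcy1 were not well above background in any of the 20 samples. Adcy4, Adcy6 and Adcy7 were above background in at most 3 of the 4 samples of any condition and were not tested. Gng11 passed through BYS alone and was not well above background in any BYA sample. No member spot was saturated. Levels below are log2 normalized intensities, which cannot be compared between genes. A gene was called when its Benjamini-Hochberg adjusted p from limma, over all genes tested, was under 0.05.

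4 genes of the family were called in at least 1 comparison, each against SNS: Gnal was higher in all 4 conditions exposed to betamethasone, Gngt2 was higher in BYS, Gnb1 was lower in BNS and BYA, and Gnai3 was lower in BYA. In BNS against SNS, 1 of 30 members was called higher and 1 lower, while 16.9% of all genes were called. In BYS against SNS 2 members were called, both higher, beside 15.7% of all genes, and in BYA against SNS 1 was higher and 2 lower, beside 21.8%. In BYP against SNS 1 member was called, higher, beside 17.5% of all genes. The share of members called, between 3.33% and 10%, was thus below the background in each of these comparisons, and no excess of the family over other genes was seen. At an unadjusted p under 0.05 the counts were 7, 4, 6 and 7 members in BNS, BYS, BYA and BYP, beside 33.6%, 32.4%, 36.7% and 33.5% of all genes. The median log2 fold change of the 30 members against SNS lay between -0.02 and 0.02, and that of all genes between -0.08 and -0.07.

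**Figure D1:**
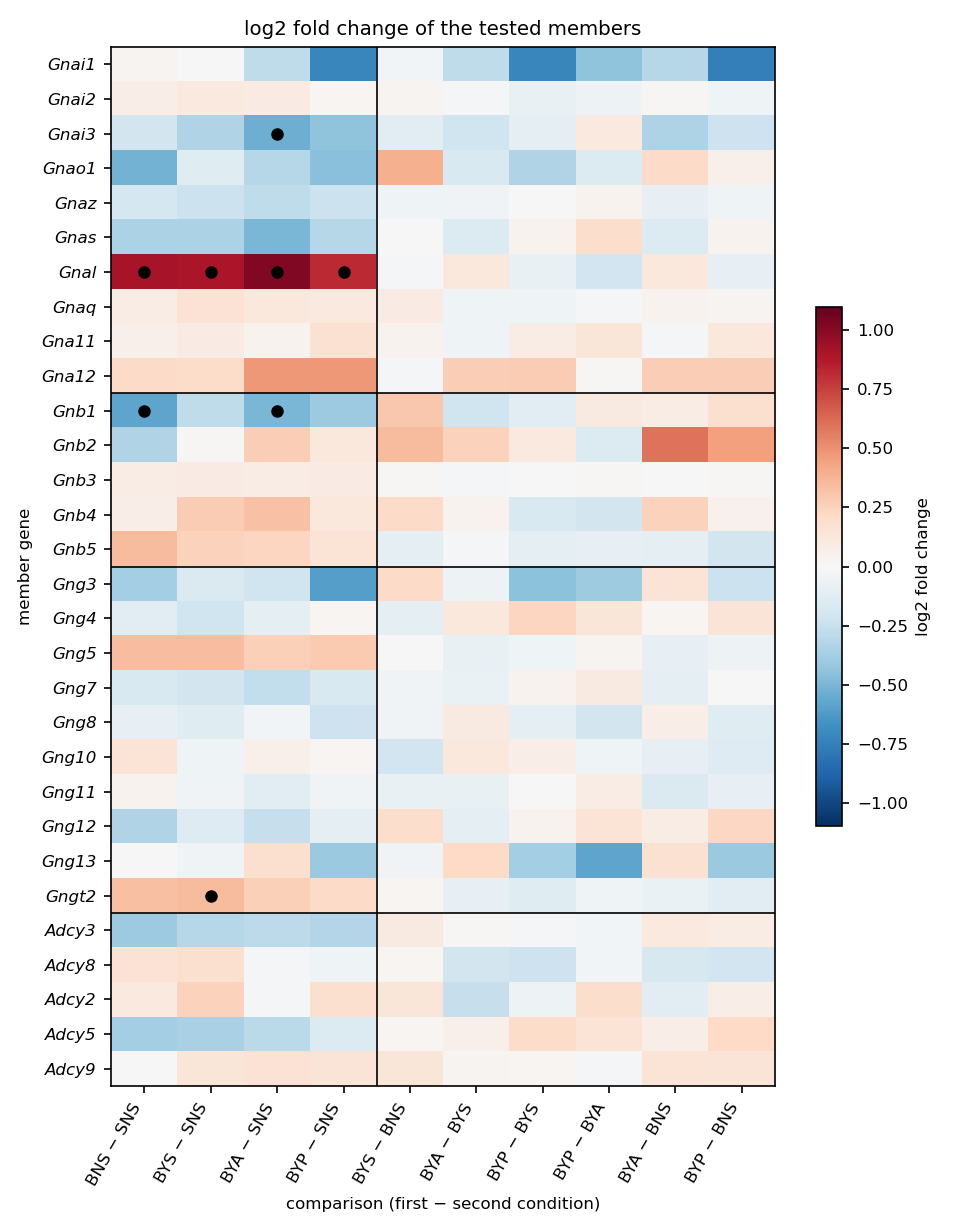
log2 fold change of the 30 tested members (rows, alpha, beta and gamma subunits and cyclases separated by lines) in the 10 comparisons (columns, first minus second condition); a black dot marks a limma adjusted p under 0.05. The 8 dots all lie in the 4 comparisons with SNS, at the left of the vertical line, and 4 of them belong to Gnal.

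For Gnal, Gngt2, Gng5 and Gnb1, the oligonucleotide with a reading frame open over its length that was called against SNS is shown, since it is what was measured. The probe of Gnai3 and the second probe of Gnal have a stop in every reading frame and are not shown. Each is given 5′ to 3′ in the sense of the transcript, with its position on the rat build rn4 as the array files give it. The capitals mark a stop codon at the end of a reading frame that is open before it. No gene annotation of that build was used here, so exon and untranslated boundaries are not stated.
Gnal, A_64_P013122, chr18:63735744-63735803, plus strand: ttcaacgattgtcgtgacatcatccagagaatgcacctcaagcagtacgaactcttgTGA
Gngt2, A_64_P142229, chr10:84557202-84557261, plus strand: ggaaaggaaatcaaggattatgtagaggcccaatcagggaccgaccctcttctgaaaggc
Gng5, A_64_P122509, chr2:244706509-244706568, plus strand: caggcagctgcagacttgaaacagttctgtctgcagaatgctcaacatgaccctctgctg
Gnb1, A_64_P384857, chr5:172384129-172384188, plus strand: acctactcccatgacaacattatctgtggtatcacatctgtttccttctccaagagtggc
The Gnal probe holds 19 codons without a stop followed by TGA. Those of Gngt2, Gng5 and Gnb1 each have at least 1 reading frame with no stop over their 60 bases.

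Gnal encodes the alpha subunit Golf, which stimulates adenylyl cyclase in olfactory neurons and, with Adcy5, in the striatum. Its level was 9.21, 9.29, 8.30 and 8.88 in the SNS rats and 9.74, 9.76, 9.84 and 9.97 in the BNS rats. It was 9.91, 9.66, 9.76 and 9.95 in the BYS rats, 9.71, 9.98, 10.13 and 9.90 after ACTH, and 9.89, 9.83, 9.58 and 9.64 after PMX53. All 16 samples after betamethasone, from 9.58 to 10.13, lay above the highest SNS sample, a separation in that direction that 7.15% of all genes also showed. Against SNS the log2 fold change was 0.91 in BNS (SE 0.189, limma adjusted p = 0.00335), 0.90 in BYS (SE 0.189, adjusted p = 0.00368), 1.02 in BYA (SE 0.181, adjusted p = 0.000784) and 0.82 in BYP (SE 0.189, adjusted p = 0.00682). Gnal was 1 of the 6.05% of genes called higher in all 4 of these comparisons, which share the SNS samples. Among the 4 conditions after betamethasone its differences ran from -0.21 (BYP minus BYA, 95% interval -0.59 to 0.17) to 0.12 (BYA minus BYS, -0.26 to 0.50), and no pair was called. Of the 8 markers of striatal projection neurons, 7 were tested and their summed intensity ran from 11900 to 16800 in SNS and from 12500 to 18600 in the other conditions; Rgs9, lower in BYS, was the only one called, and the defining marker Drd1 did not pass the filter. Whether cells of that kind bear on the Gnal value was not tested.

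**Figure D2:**
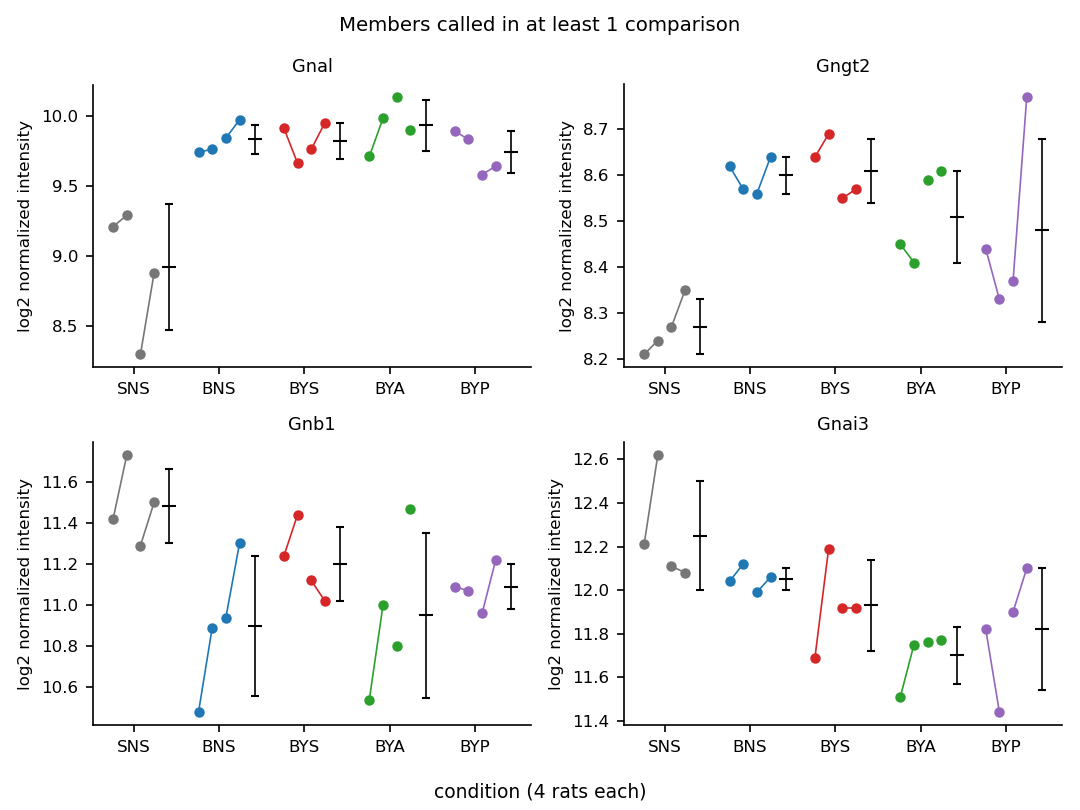
Level (log2 normalized intensity, y axis) of the 4 members called in at least 1 comparison, by condition (x axis). Each point is 1 rat, a line joins rats on the same array, and the black mark is the mean ± SD. In the Gnal panel the 4 SNS points end at 9.29 and all other points begin at 9.58, whereas the points of Gnb1 overlap between conditions.

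The Gnal value averages a pair of probes that moved in opposite directions. The probe printed above, which ends at the stop codon, read 9.27, 9.31, 7.37 and 8.37 in SNS and between 10.52 and 11.25 in the 16 other samples. Its value in SNS replicate 3 was not well above background, and within SNS the first pair of rats, which shared an array, read higher than the other pair. Its log2 fold change against SNS was 2.17 in BNS (SE 0.34, limma adjusted p = 0.000318), 2.27 in BYS, 2.37 in BYA and 2.15 in BYP, and without SNS replicate 3 it was 1.79 in BYP (adjusted p = 0.000105). The other probe, A_44_P398077 at chr18:63640867-63640926 on the plus strand, lies 94.9 kb upstream on that build, was designed on a partial, alternatively spliced Golf transcript, and has a stop in every reading frame. It read 9.14 to 9.39 in SNS and 8.65 to 9.01 in all others, with log2 fold changes of -0.35, -0.47, -0.32 and -0.51 in BNS, BYS, BYA and BYP (adjusted p = 0.0451, 0.0106, 0.0475 and 0.0057). Its BNS call was lost without any 1 SNS sample or without BNS replicate 1, 2 or 4 (-0.36 to -0.32, adjusted p from 0.0528 to 0.0912), and its BYA call without any 1 SNS sample or without BYA replicate 1, 2 or 4 (-0.33 to -0.27, adjusted p from 0.0548 to 0.0893). Median scaling ended its call in BYS (-0.56, adjusted p = 0.23) and in BYP (-0.46, 0.164), and the fit of 8 samples that in BYP (-0.51, 0.061); over all alternatives the highest adjusted p was 0.272 in BNS and 0.45 in BYA. The SNS samples were thus the lowest on 1 probe and the highest on the other, without overlap. Probes of 1 gene called in opposite directions occurred in 28 of 2522 genes with more than 1 kept probe in BNS against SNS (1.11%) and in 78 in BYA against SNS (3.09%), and Gnal was the only one among 6 such members. The gene's difference of 0.82 to 1.02 is therefore an average that neither probe showed.

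Gnas encodes Gs, the ubiquitous stimulatory alpha subunit. The 4 SNS rats had levels of 14.56 to 14.98 on a probe measured at 10 spots, and the 16 others of 13.37 to 14.70. It was not called in any comparison, with log2 fold changes against SNS of -0.50 in BYA (adjusted p = 0.12) to -0.31 in BYP. The lowest value, BYA replicate 1, stood 0.99 below the next BYA sample. The other Gnas probe, not mapped on rn4 in the files, gave -0.07 to 0.20.

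Among the inhibitory alpha subunits Gnai3 was the one called. Gnai3 encodes a Gi subunit found in most cells. Its level was 12.21, 12.62, 12.11 and 12.08 in SNS, 12.04, 12.12, 11.99 and 12.06 in BNS, and 11.69, 12.19, 11.92 and 11.92 in BYS. It was 11.51, 11.75, 11.76 and 11.77 in BYA and 11.82, 11.44, 11.90 and 12.10 in BYP. The BYA samples lay below all SNS samples, and those of the other 3 conditions overlapped with SNS. The log2 fold change was -0.54 in BYA (SE 0.164, limma adjusted p = 0.0253), -0.44 in BYP (adjusted p = 0.0831), -0.33 in BYS and -0.20 in BNS. Without SNS replicate 2 the BYA value was -0.45 and no longer called (adjusted p = 0.0577), and with the software's own processed signals it was -0.02 (adjusted p = 0.965, the upper end of a range from 0.000418 over the alternatives).

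Gnai1, the Gi subunit rich in brain, read 8.23, 9.19, 8.95 and 9.19 in SNS, 8.93, 9.10, 8.54 and 9.11 in BNS, and 8.99, 9.19, 8.98 and 8.41 in BYS. It read 8.11, 9.11, 8.64 and 8.59 in BYA and 8.68, 8.79, 7.07 and 8.15 in BYP. All conditions overlapped, and 1 BYP sample was far below the rest. Its log2 fold change in BYP was -0.72 against SNS (95% interval -1.44 to 0.01, adjusted p = 0.155) and -0.75 against BNS (adjusted p = 0.468). Gnao1, the Go subunit that is among the most abundant membrane proteins of neurons, was lower in all 4 BNS samples (13.39 to 13.72) than in SNS (13.95 to 14.27), with a log2 fold change of -0.52 that was not called (adjusted p = 0.0752). The gene's value came from a probe with no value in BYA replicate 1. A second Gnao1 probe gave 0.02 in the same comparison, but had values in only 2 of the 4 SNS samples. Gnai2 stayed between 16.03 and 16.52 in all 20 samples.

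Among the other alpha subunits, Gna12 read 7.66 to 8.04 in SNS and lay above that range both after ACTH (8.09 to 8.81) and after PMX53 (8.10 to 8.85), with log2 fold changes of 0.48 in both and adjusted p = 0.0961 and 0.118. Its probe was well above background in only 2 of the 4 SNS samples and 3 of the 4 BYA samples. Gnaq and Gna11, which encode the Gq and G11 subunits, differed from SNS by 0.04 to 0.17 and were not called. In SNS the Gnaq probe was well above background in 1 sample and the Gna11 probe in 2.

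Gnb1 encodes the beta subunit that is common to most G proteins of the brain. Its level was 11.42, 11.73, 11.29 and 11.50 in SNS, 10.48, 10.89, 10.94 and 11.30 in BNS, and 11.24, 11.44, 11.12 and 11.02 in BYS. It was 10.54, 11, 10.80 and 11.47 in BYA and 11.09, 11.07, 10.96 and 11.22 in BYP. The 4 BYP samples lay below SNS, while 1 sample each of BNS, BYS and BYA overlapped with it. The log2 fold change was -0.58 in BNS (SE 0.173, limma adjusted p = 0.0281), -0.50 in BYA (SE 0.166, adjusted p = 0.0373), -0.40 in BYP (adjusted p = 0.114) and -0.28 in BYS (adjusted p = 0.27). The BNS call was lost without SNS replicate 2 (-0.55, adjusted p = 0.0507), BNS replicate 1 (-0.50, 0.0673) or BNS replicate 2 (-0.57, 0.0512). The BYA call was lost without SNS replicate 1 (-0.50, 0.0568) or 2 (-0.48, 0.0667) or BYA replicate 1 (-0.43, 0.0746), 2 (-0.50, 0.0613) or 3 (-0.48, 0.0664), and with processed signals the values were -0.11 in BNS and 0.06 in BYA.

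The remaining beta subunits were not called in any comparison, but the levels of Gnb2, Gnb4 and Gnb5 differed between the arrays of 1 condition. Gnb4 read 9.53 and 9.61 on 1 SNS array and 8.42 and 8.64 on the other. Gnb5, which pairs with RGS proteins of the R7 family, read 10.18 and 10.29 on the first and 9.18 and 9.21 on the second. Gnb2 read 13.47 and 13.17 against 12.55 and 12.07. Rats that shared an array were thus closer to each other than to the other pair of the same condition. Over all pairs within a condition, the mean difference of Gnb5 was 0.214 on the same array and 0.601 on different arrays, that of Gnb4 0.249 and 0.517, and that of Gnb2 0.444 and 0.648. The same held for 17 of the 30 members, while the others did not follow, among them Gng3 (0.291 and 0.227), so the family did not share it. The share of all genes that did was not counted. Over all genes the mean distance between samples of a condition was 0.289 on the same array and 0.373 on different arrays. In the limma fit 2 samples of 1 array correlated at 0.367. A pair of rats on 1 array shares its hybridization, and whether it also shares a litter is not given, so the 2 cannot be told apart.

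**Figure D3:**
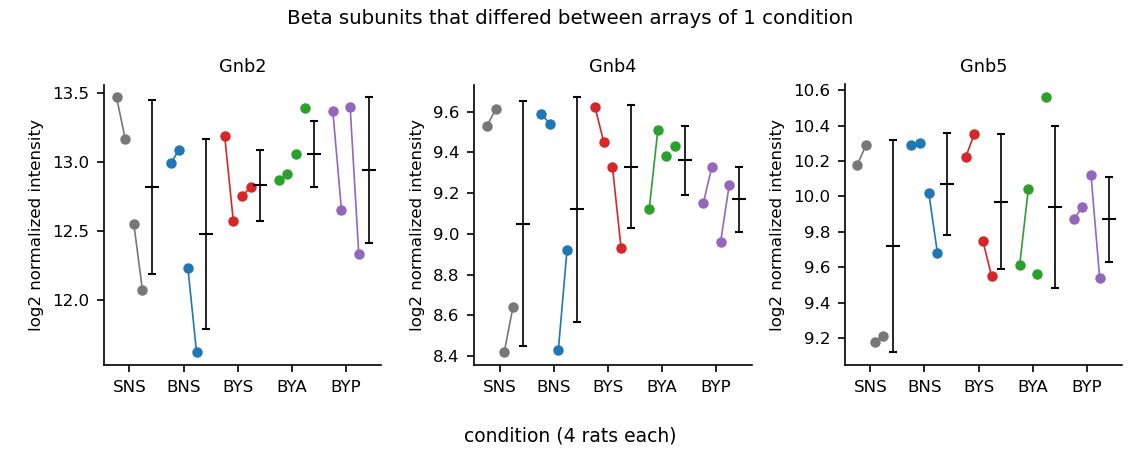
Level (log2 normalized intensity, y axis) of Gnb2, Gnb4 and Gnb5 by condition (x axis). Each point is 1 rat, a line joins rats on the same array, and the black mark is the mean ± SD. In SNS the joined pairs of Gnb4 lie near 9.6 and 8.5 and those of Gnb5 near 10.2 and 9.2.

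Of the gamma subunits, which anchor the beta-gamma pair to the membrane, 10 of 11 were tested and Gngt2 was the only one called. Gngt2 encodes the gamma subunit of cone transducin. Its level was 8.21, 8.24, 8.27 and 8.35 in SNS, 8.62, 8.57, 8.56 and 8.64 in BNS, and 8.64, 8.69, 8.55 and 8.57 in BYS. After ACTH it was 8.45, 8.41, 8.59 and 8.61, and after PMX53 8.44, 8.33, 8.37 and 8.77. BNS, BYS and BYA lay above all SNS samples and BYP overlapped by 1 sample. The log2 fold change was 0.35 in BYS (SE 0.115, limma adjusted p = 0.049), 0.33 in BNS (adjusted p = 0.0562), 0.26 in BYA and 0.21 in BYP. The BYS call was lost without any 1 of SNS replicates 1, 2 and 3 (0.33 to 0.35) or of the 4 BYS replicates (0.33 to 0.36), with adjusted p from 0.0553 to 0.102. It was also lost with processed signals (0.58, adjusted p = 0.0885), median scaling (0.26, 0.587), the brighter probe alone (0.12, 0.485) and the fit of 8 samples (0.35, 0.0766), in all in 11 of 17 alternatives.

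Here, too, the probes differed. The Gngt2 probe printed above was 7.96 to 8.09 in SNS and 8.23 to 8.71 in every other sample, and was called in all 4 comparisons with SNS by limma, with 0.56 in BNS (limma adjusted p = 0.00495), 0.57 in BYS (0.00423), 0.45 in BYA (0.0124) and 0.40 in BYP (0.0307). Its BYP call was lost without SNS replicate 2 (0.38, adjusted p = 0.0527) or BYP replicate 1 (0.38, 0.0619) or 4 (0.29, 0.0591), and none of the 4 was called with processed signals or median scaling (adjusted p from 0.0799 to 0.348). It was well above background in only 2 of the 4 SNS samples. The second probe of Gngt2, at chr10:84557375-84557434 and measured at 10 spots, gave 0.10, 0.12, 0.07 and 0.02 and was not called.

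Gng5 encodes a widely expressed gamma subunit. Its level was 9.56, 9.51, 9.22 and 9.27 in SNS, 9.66, 9.61, 9.90 and 9.77 in BNS, and 9.69, 9.53, 9.79 and 9.91 in BYS. It was 9.61, 9.51, 9.66 and 9.76 in BYA and 9.73, 9.27, 9.91 and 9.79 in BYP. BNS lay above all SNS samples and the others overlapped. As a gene it was not called (log2 fold change 0.34 in BNS, adjusted p = 0.112), but the probe printed above was called in BNS, BYS and BYA, by 0.61 (limma adjusted p = 0.0346), 0.61 (0.0382) and 0.58 (0.0323), and missed the threshold in BYP (0.54, 0.0581). That probe read 11.05, 10.91, 10.46 and 10.35 in SNS and 10.73 to 11.55 in the others, so its SNS samples again differed by array. Its calls were lost without SNS replicate 3 or 4 in all 3 comparisons (0.50 to 0.56, adjusted p from 0.0572 to 0.0731), and also without BNS replicate 2, 3 or 4, BYS replicate 1, 3 or 4, or BYA replicate 1 or 4 (0.50 to 0.67, adjusted p from 0.051 to 0.082). With processed signals the values fell to 0.39, 0.31 and 0.31 in BNS, BYS and BYA (adjusted p = 0.286, 0.397 and 0.387), and with median scaling they were 0.32, 0.72 and 0.58 (0.494, 0.225 and 0.294). The second probe, 4.58 kb downstream on rn4, was well above background in 2 SNS and 2 BYA samples and differed from SNS by -0.06 to 0.08. In all, of 36 member probes 3 were called higher and 2 lower in BNS against SNS, where 17.2% of all probes were called, and 4, 6 and 3 were called in BYS, BYA and BYP (background 16.1%, 22.4% and 17.9%).

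**Figure D4:**
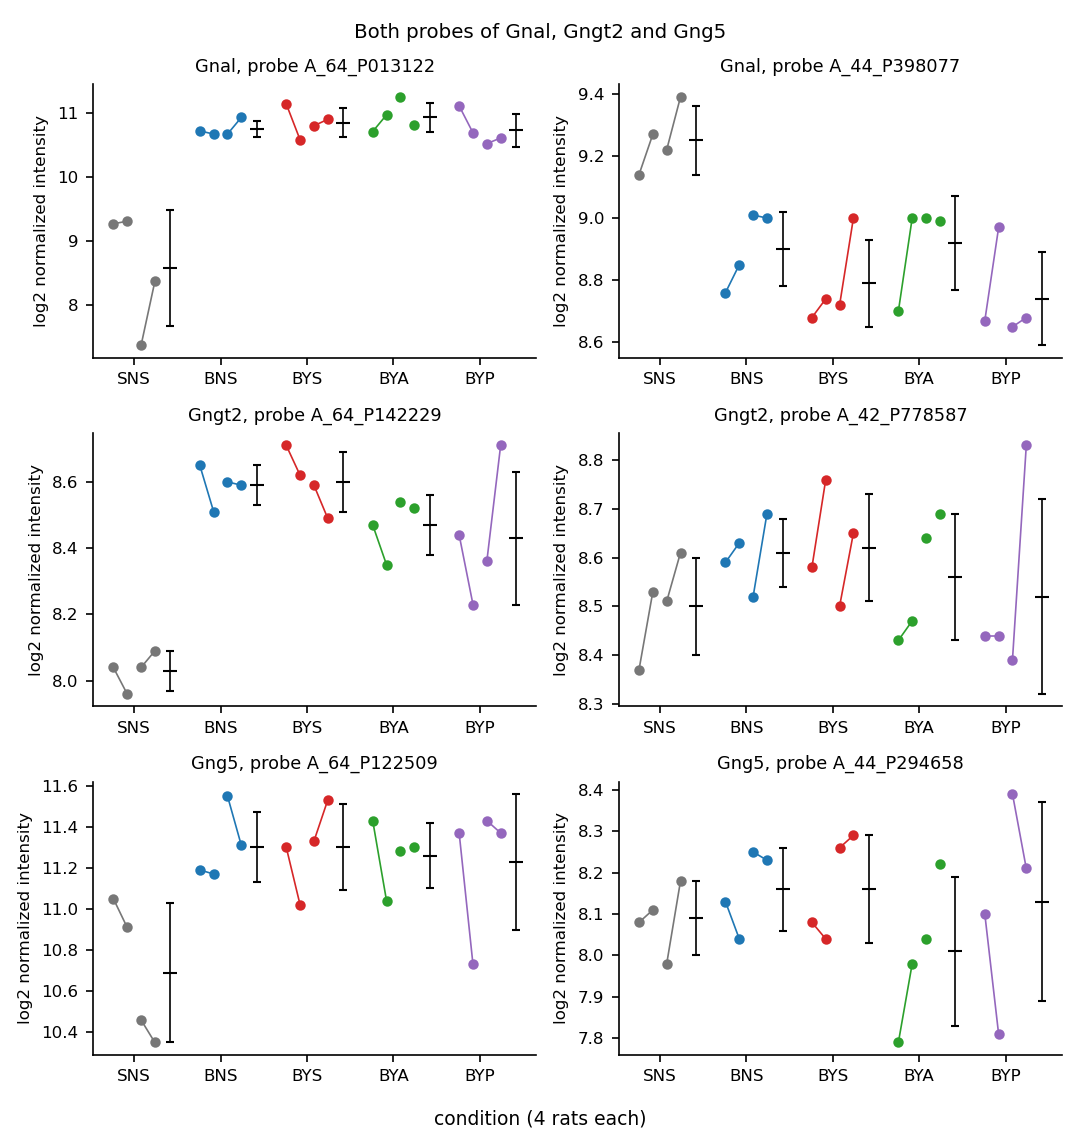
Level (log2 normalized intensity, y axis) of both probes of Gnal, Gngt2 and Gng5 by condition (x axis). Each point is 1 rat, a line joins rats on the same array, and the black mark is the mean ± SD. SNS has the lowest mean on the left-hand probe of each gene and lies above all other points on the right-hand probe of Gnal, at 9.14 to 9.39. On the right-hand probes of Gngt2 and Gng5 it overlaps the other conditions.

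Gng3, a neuronal gamma subunit, was 14.46 to 14.63 in SNS and 13.56, 13.64, 13.83 and 14.73 in BYP, with a log2 fold change of -0.61 (adjusted p = 0.076). Gng13, known from taste and retinal cells, differed by -0.58 between BYP and BYA (limma unadjusted p = 0.0438, adjusted p = 0.608). Its BYP samples read 13.09, 12.53, 11.67 and 12.73. A second Gng13 probe, left out of the gene's value for its missing values, went the other way, with means of 12.44 in BYP and 12.27 in BYA. Gng11, dim in BYA, read 7.39 to 7.90 there and 7.78 to 7.93 in BNS, ranges that overlap. Its dim signal gives only a bound on its level after ACTH. Gng11 was not called in any comparison (limma adjusted p = 0.49 against SNS). The other gamma subunits (Gng4, Gng7, Gng8, Gng10 and Gng12) were not called in any comparison.

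No adenylyl cyclase was called in any comparison, and 5 of the 9 were tested. Adcy3, a calcium-stimulated cyclase of olfactory and neuronal cilia, read 8.69, 9.09, 9.16 and 8.94 in SNS, 8.71, 8.78, 8.30 and 8.47 in BNS, and 8.71, 8.71, 8.64 and 8.58 in BYS. It read 8.52, 8.64, 8.70 and 8.78 in BYA and 8.85, 8.83, 8.43 and 8.49 in BYP. Each condition overlapped with SNS through the lowest SNS sample, and the log2 fold changes were -0.40 in BNS (adjusted p = 0.0695), -0.31 in BYS, -0.29 in BYA and -0.32 in BYP. Adcy5, a calcium-inhibited cyclase, read 11.13, 10.88, 10.97 and 10.77 in SNS, 10.58, 10.59, 10.64 and 10.43 in BNS, and 10.39, 10.66, 10.55 and 10.72 in BYS. It read 10.92, 10.29, 10.78 and 10.53 in BYA and 10.83, 10.73, 10.74 and 10.84 in BYP. BNS and BYS lay below all SNS samples without being called (-0.37, adjusted p = 0.103, and -0.36, adjusted p = 0.124), and BYA and BYP overlapped with SNS (-0.30 and -0.15). Non-overlap with SNS was not rare: 35.3% of all genes did not overlap with it in BNS, 29.5% in BYS, 29.6% in BYA and 28.7% in BYP, beside 7, 4, 7 and 5 of the 30 members. Adcy2, Adcy8 and Adcy9 differed from SNS by -0.05 to 0.25.

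The comparisons among the conditions that share prenatal betamethasone gave no member call. In these, too, slide and condition cannot be told apart. Against BNS, in which NMDA spasms are the added factor, BYS showed no called member (background 0%), with the largest difference at Gnao1 (0.39). Against BYS, ACTH (background 0%) and PMX53 (background 0.00585%) changed no member past the threshold. The largest differences were -0.28 for Gnai1 in BYA and -0.72 for Gnai1 in BYP. BYP against BYA (0%), BYA against BNS (0.00585%) and BYP against BNS (0.0702%) likewise gave none. At an unadjusted p under 0.05, 1 member passed in BYP against BYA (Gng13), 1 in BYP against BNS (Gnai1) and 0 in the other 4 of these comparisons, beside 7.94%, 10.4% and, for BYS against BNS, BYA against BYS, BYP against BYS and BYA against BNS, 3.24%, 4.31%, 3.82% and 7.42% of all genes. The methods' t-test at its own threshold gave 1 in BYS against BNS, 1 in BYA against BNS, 2 in BYP against BNS and 0 in the other 3, beside 7.61%, 10.4%, 14.9% and 5.06% to 6.92% of all genes. The 95% intervals had a median half-width of 0.373 log2 units (0.359 with BYA) and the widest was 0.728, so differences within these intervals are not excluded.

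The 5 lists of other genes of the pathway held 84 genes that are not members, of which 70 were tested. Against SNS, 4 were called higher and 4 lower in BNS, 5 and 4 in BYS, 7 and 8 in BYA and 6 and 4 in BYP. Of all genes 16.9%, 15.7%, 21.8% and 17.5% were called, so these lists showed no excess over other genes. None of the 70 was called in the other 6 comparisons. Pdcl, a chaperone of beta-gamma assembly, rose by a log2 fold change of 1.07 in BNS, 1.03 in BYS, 0.80 in BYA and 0.85 in BYP (limma adjusted p = 0.000116, 0.000194, 0.000783 and 0.000932). Rgs12 and Rgs14 speed GTP hydrolysis by Gi and Go subunits; Rgs12 rose by 0.75, 0.58, 1.01 and 0.90, and Rgs14 by 1.00 in BNS and 0.85 in BYS. Rgs17, another such protein, was lower in all 4, by -0.38 to -0.47. Of the 27 tested genes of that list, 3 were higher and 2 lower in BNS, with a median of -0.05 beside -0.08 for all genes.

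Downstream of the cyclases, Prkaca, the alpha catalytic subunit of protein kinase A, was higher in all 4 conditions (0.67, 0.65, 0.75 and 0.73), again from a pair of probes that differed: A_64_P105515 gave 1.38, 1.42, 1.32 and 1.41 and A_64_P016443 gave -0.05, -0.12, 0.18 and 0.05. It was the only one of 22 tested genes of the protein kinase A list called in BNS against SNS. Popdc2, a cyclic AMP binding membrane protein, was lower in BYS, BYA and BYP (-0.49, -0.46 and -0.55). Pde7b, which degrades cyclic AMP, was higher in BYS, BYA and BYP (0.38, 0.45 and 0.40). Of its 2 probes, A_64_P018417 was called in each of these and A_64_P160739 in BYA alone. Of 11 tested phosphodiesterases, 1 was called lower in BNS, 1 higher in BYS, 2 higher and 1 lower in BYA, and 1 higher in BYP. None of the 6 tested receptor kinases and arrestins was called in any comparison. Gnb1l, a relative of the beta subunits that is no member, was lower in all 4 (-0.49, -0.62, -0.43 and -0.50), and both of its probes were called lower in each.

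**Figure D5:**
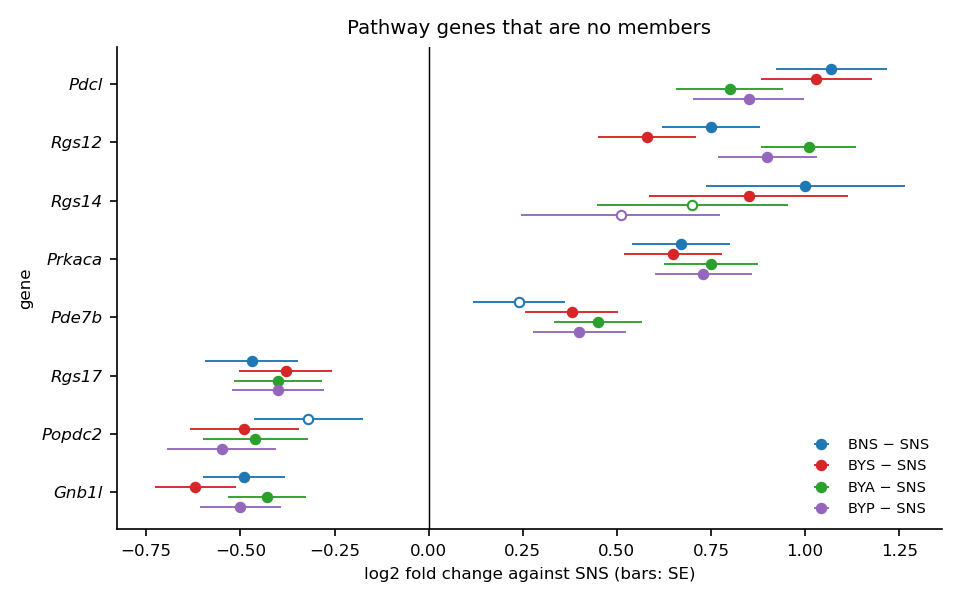
log2 fold change against SNS (x axis, bars show the SE) of 8 pathway genes that are not members (y axis), with 1 colour for each comparison with SNS. Filled points have a limma adjusted p under 0.05. Pdcl, Rgs12, Prkaca, Rgs17 and Gnb1l are filled in all 4, whereas Rgs14, Pde7b and Popdc2 have at least 1 open point.

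Promoters of 27 members, RefSeq windows around the transcription start on build GRCr8, were searched on both strands for the cyclic AMP response element TGACGTCA, its half-site TGACG or CGTCA, and the palindromic glucocorticoid response element. The full cyclic AMP element was in 1 member promoter, that of Gnao1, and in 1.83% of all promoters. The half-site, which overlaps the full element, was in 9 of the 27 and in 21.2% of all promoters. A member with several windows, such as Gnas, was counted once if any of them held the motif. The share over all promoters counted each window, so the 2 are not in the same unit. The glucocorticoid element was in none of the 27 and in 0.0149% of all promoters. The Gnal and Gnb1 windows held none of these letters.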

How the data were processed

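The authors deposited one raw table per array from Agilent Feature Extraction (version 11.5.1.1, protocol GE2_1105_Oct12, in the file headers; 10.7.3.1 in the submitters' processing notes), with the intensity of every spot, its local background, flags and processed signals; probe positions are on rn4. From these deposited intensity values, mean signals of the 20 channels used were background corrected (normexp, offset 50), set to log2, quantile normalized over the channels, and averaged over the spots of a probe, leaving out control spots and the 1.18% of values marked as outliers. Names came from the probes' accessions where RefSeq's table held them (61.4% of 30367 probes) and otherwise from the files. A probe was kept where a share of at least 0.5 of its spots passed the background flag in each of the 4 rats of some condition. A gene's value is the mean of its complete probes, or its most complete probe. One limma fit (version 3.58.1, R 4.3.3) over all 20 samples had dye as covariate and array as a random block, since a shared array is known to link samples. Benjamini-Hochberg adjustment ran over all genes within each of 10 comparisons, and the fit was tested on simulated data. The 82 columns of channels of another series were left out. The study itself used unequal-variance t-tests with a fold cut-off, tried here as alternatives with other blocks, normalizations, filters and left-out samples. Depth is not defined for arrays; the number of arrays limits the precision. The members, the gene lists and the tests were chosen with earlier results of these data known. Values per sample are given for every member called and for Gnai1, Gnb1, Gng5, Adcy3 and Adcy5, which the study names; of the pathway lists, at most 3 risen and 3 fallen genes per list and comparison are named. Proteins were not used here.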

Additional observations from a re-analysis of the deposited data

Results flagged for a closer look

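In 5 of 148 groups of 4 samples (3.38%), 1 member's value stood apart from the other 3 by more than Dixon's 95% critical value; chance gives about 1 in 20. Low values in BYA replicate 1 were those of 3 members: Gnas at 13.37 with the next sample at 14.36, Gnai3 at 11.51 with the next at 11.75, and Gng3 at 14.24 with the next at 14.34. Gnaq was high in BYA replicate 4, at 8.08 with the next at 7.90. Gnb3 was low in SNS replicate 1, at 7.70 with the next at 7.93. Without BYA replicate 1 the log2 fold change of Gnai3 in BYA against SNS was -0.51 (limma adjusted p = 0.0499, in a range from 0.000418 to 0.965 over the alternatives).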

How the results depend on the processing

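The number of members called against SNS depended on the processing, and the values are given in the order BNS, BYS, BYA and BYP, where the main counts were 2, 2, 3 and 1. Without the array block 7, 3, 7 and 6 were called, beside 31.9%, 30.6%, 34.2% and 31.9% of all genes. With the slide as random block the counts were 10, 9, 10 and 12, beside 51.1%, 49.1%, 48.3% and 51% of all genes, and 1 each in BYP against BYA (6.05%) and BYP against BNS (15.6%). Since slide and condition cannot be told apart and the fitted correlation within a slide was negative (-0.129), this setting cannot adjust for a slide effect. With channels scaled to the same median they were 0, 0, 1 and 0, beside 0.181%, 0.217%, 0.784% and 0%, and the median of all genes in BNS against SNS moved from -0.08 to -0.18. With the software's processed signals 0 were called in BNS and 1 in BYS, beside 6.94% and 7%, and Gnb1 in BYA against SNS reversed to 0.06. With only the 8 samples compared 1, 1 and 0 were called in BYS, BYA and BYP, beside 9.67%, 6.53% and 5.68%. The methods' t-test at its own threshold gave 9, 6, 5 and 4 (37.9%, 33.6%, 31.6% and 31.8% of all genes), and 1, 1 and 2 in BYS, BYA and BYP against BNS (7.61%, 10.4% and 14.9%). After Benjamini-Hochberg it gave 1, 1 and 0 in BYS, BYA and BYP (11.8%, 8.24% and 9.28%). The combined criterion gave 9, 6, 5 and 4 (37.2%, 32.9%, 31.2% and 31.3%), and 1 each in BYS, BYA and BYP against BNS (7.03%, 9.7% and 14.2%). Leaving out 1 sample gave 1 to 3, 1 to 2, 1 to 3 and 1 to 2, and 0 in the other 6 comparisons. The cause of these differences was not tested.

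Gnal kept its direction in all 4 comparisons under every alternative run, and its call whichever 1 sample was left out. In BYA it was called under all 17 alternatives (adjusted p from 1.04e-05 to 0.0427). With processed signals the call was lost in BNS (1.31, adjusted p = 0.0591), BYS (1.23, 0.0751) and BYP (1.17, 0.0807), with median scaling in BNS (0.82, 0.113), BYS (0.97, 0.073) and BYP (0.72, 0.0984), and with the fit of 8 samples in BYP (0.82, 0.0781); the lowest values over the alternatives were 1.17e-05, 1.29e-05 and 3.35e-05. With its brighter probe alone the BNS value was 2.17. The probe that ends at the stop codon was called in BNS, BYS and BYA under each alternative, and in BYP under 15 of 16 (highest adjusted p = 0.0789). After condition means and dye were removed, deviations of samples with the same replicate number correlated at 0.00311 on average (-0.239 to 0.28). Of 40 such pairs 7 were over 0.1, and samples with other numbers correlated at -0.00076 on average. Dye followed the replicate number, so removing it also removed part of any shared effect, and pairing by number is not excluded. With the replicate block 4 members were called in BNS against SNS, beside 18.7% of all genes.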
